A study of Mus musculus with 12 samples.

Results

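The comparison runs from postnatal day 18 (P18), when oligodendrocytes of the mouse brain are still wrapping axons, to postnatal day 75 (P75), when the bulk of that work has ended. It rests on 6 of the 12 libraries of the series, 3 at P18 and 3 at P75, and on the 14634 of 21937 listed genes whose normalized read counts averaged 10 or more across all 12. Each library held total RNA of myelin purified from brains of male wild-type c57Bl6/N mice. The paper names individual brains for the libraries at 6 months, and the 3 libraries of each age are taken here as replicates from separate animals. The remaining 6 libraries, at 6 and 24 months, entered the estimate of the spread between replicates and are quoted below only as levels. Every animal of an age shares that age, so age cannot be told apart from any batch in which the animals of an age were handled together.

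Myelin is the multilayered membrane sheath that oligodendrocytes wrap around axons, and its light density allows it to be separated from brain homogenate on a sucrose gradient. Oligodendrocytes arise from dividing precursors, pass through a short newly formed stage in which synthesis of membrane starts, and then carry a finished sheath for most of the animal's life. Messenger RNA reaches the sheath by transport from the cell body, Mbp mRNA being the classical case, while RNA of axons and of neighbouring cells can enter the same fraction. In such a bulk fraction, fewer cells of a type and less RNA per cell cannot be told apart.

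The P18 libraries held 20579740 to 23770172 reads on genes and the P75 libraries 20299052 to 24097818. The identity of the fraction was visible in Mbp, the gene of myelin basic protein, which took 9.47% to 20.8% of these reads at P18 and 4.76% to 7.03% at P75. P18 replicate 3 stood apart from the other P18 libraries. The mean log2 level of 27 genes of myelin proteins was 13.47, 13.54 and 12.87 in P18 replicates 1, 2 and 3, against 13.01, 12.91 and 12.99 at P75, so results on oligodendrocyte genes are also given without that library. Microglial markers, 20 genes, summed to 8469 to 9643 at P18 and 11797 to 13159.6 at P75, and 20 astrocyte markers summed to 162422 to 197620.0 and 195276 to 197608. No gene of either list was at 0 in any of the 6 libraries.

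A change is the difference of log2(normalized read count + 1) between P75 and P18, so a positive value means higher at P75, and a gene was called changed where limma gave a Benjamini-Hochberg adjusted p under 0.1. Of all genes tested 48.8% were called, 25.9% higher and 22.9% lower at P75. Of all genes 4.54% changed over 2-fold, 2.82% upward and 1.73% downward. The libraries of both ages did not overlap for 47.7% of genes, with P75 higher for 25.1% and lower for 22.6%. Most of the 7137 called changes were small: 62.1% of them were under 1.5-fold, 37 genes rose and 19 fell over 4-fold, and the median absolute log2 change of called genes was 0.49. The median of all genes was 0.02. With every library scaled to the same total in place of the authors' size factors, that median moved to 0.14 and the calls divided into 4739 higher and 1827 lower (72.2% higher, against 53.0% with the size factors), so a change is best read relative to the other genes. These shares are the background for every count below. Lists of genes are described by counts and medians alone.

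The genes of structural myelin proteins did not move as a block. Of 27, 13 fell, 9 rose and 5 were not called, with a median log2 change of -0.25. Sirt2, which encodes a deacetylase of the non-compact myelin channels, had normalized read counts of 27874, 36774 and 27628 at P18 and 4803, 5004 and 4658 at P75. Its log2 change of -2.66 ± 0.12 (SE, adjusted p = 6.26e-10) was the largest fall of the list, a level 6.32-fold lower with no overlap between the ages. Cnp, the gene of the cyclic nucleotide phosphodiesterase of the same compartment, followed with 38563, 43229 and 27650.0 at P18 and 10448, 11629 and 10880.1 at P75. Its change was -1.71 ± 0.15 (SE, adjusted p = 7.32e-07). Sirt2 lies on chromosome 7 (chr7:29551754-29573684, plus strand, build NCBIM37, also called mm9) and overlaps Nfkbib on the other strand, while Cnp (chr11:100436218-100453043, plus strand) overlaps Dnajc7. The sources used here do not state whether the counting used strand, so reads of such partners cannot be told apart.

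Other genes of myelin proteins fell too. The tight junction gene Cldn11 changed by -1.29 ± 0.13 (SE, adjusted p = 2.22e-06), Mal, which encodes a raft-associated proteolipid, by -1.13 ± 0.15 (SE, adjusted p = 2.42e-05), and Mog, the gene of the outermost-layer glycoprotein, by -1.11 ± 0.13 (SE, adjusted p = 1.09e-05). For Cldn11, Mal and Mog each P75 library was below each P18 library. Mbp itself had 3686430.0, 5580860.0 and 2134340.0 at P18 and 1598640.0, 1130480.0 and 1067180.0 at P75. Its change of -1.50 ± 0.60 (SE, adjusted p = 0.0548) had the widest SE of the myelin genes described here. The highest P18 library held more than the lowest by a wide margin, and the call was lost without P18 replicate 1 (-1.47), without P18 replicate 2 (-1.17), without P75 replicate 2 (-1.43) and without P75 replicate 3 (-1.39) (log2 changes in brackets). Mobp, the gene of a basic protein whose mRNA also travels into the sheath, had 180344, 265783 and 110326 at P18 and 129178, 72930.4 and 78402 at P75 and a change of -0.95 ± 0.31 (SE, adjusted p = 0.0208), with overlapping ages and a call lost without P18 replicate 2 (-0.64). Mag, the gene of the adhesion molecule facing the axon, fell by less, with 8096, 8442 and 6037 at P18 and 4569.6, 4941 and 4863 at P75 with a log2 change of -0.64 ± 0.12 (SE, adjusted p = 0.000696).

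Against these, Plekhb1, which encodes a membrane-bound pleckstrin homology protein, rose with 59903, 79638 and 26151 at P18 and 161716, 120044 and 118992 at P75. The change was 1.40 ± 0.33 (SE, adjusted p = 0.00311). Bcas1, whose product marks actively myelinating cells, had 47977, 68427 and 22648 at P18 and 114832, 76524 and 77709 at P75 and a change of 1.07 ± 0.32 (SE, adjusted p = 0.0135). Both were lowest in P18 replicate 3, and in Bcas1 the second P18 library came close to the P75 level. Gpm6b, Car2, Omg, Hapln2, Cd82 and Trf, which encode a membrane glycoprotein, carbonic anhydrase 2, a surface glycoprotein, a link protein of the node, a tetraspanin and transferrin, rose by 0.66, 0.63, 0.54, 0.75, 0.58 and 0.61 on the log2 scale. The call of Trf was lost without P18 replicate 3 (0.25) and without P75 replicate 3 (0.56). With P18 replicate 3 left out, the list as a whole had 17 members lower and 7 higher, and its median was -0.50. Septins, filament proteins that line the inner myelin layer, leaned down: of 12 genes with anillin, 8 fell and 1 rose, and Sept5 had 2909, 3843 and 3079 at P18 and 2165, 1751 and 1248 at P75, a change of -0.95 ± 0.15 (SE, adjusted p = 0.000118). Anln, the anillin gene, was the member that rose (log2 change 0.43 ± 0.19 SE, adjusted p = 0.0787), with overlapping ages and a call lost without P18 replicate 3 (0.12), without P75 replicate 1 (0.43) and without P75 replicate 3 (0.38).

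**Figure D1:**
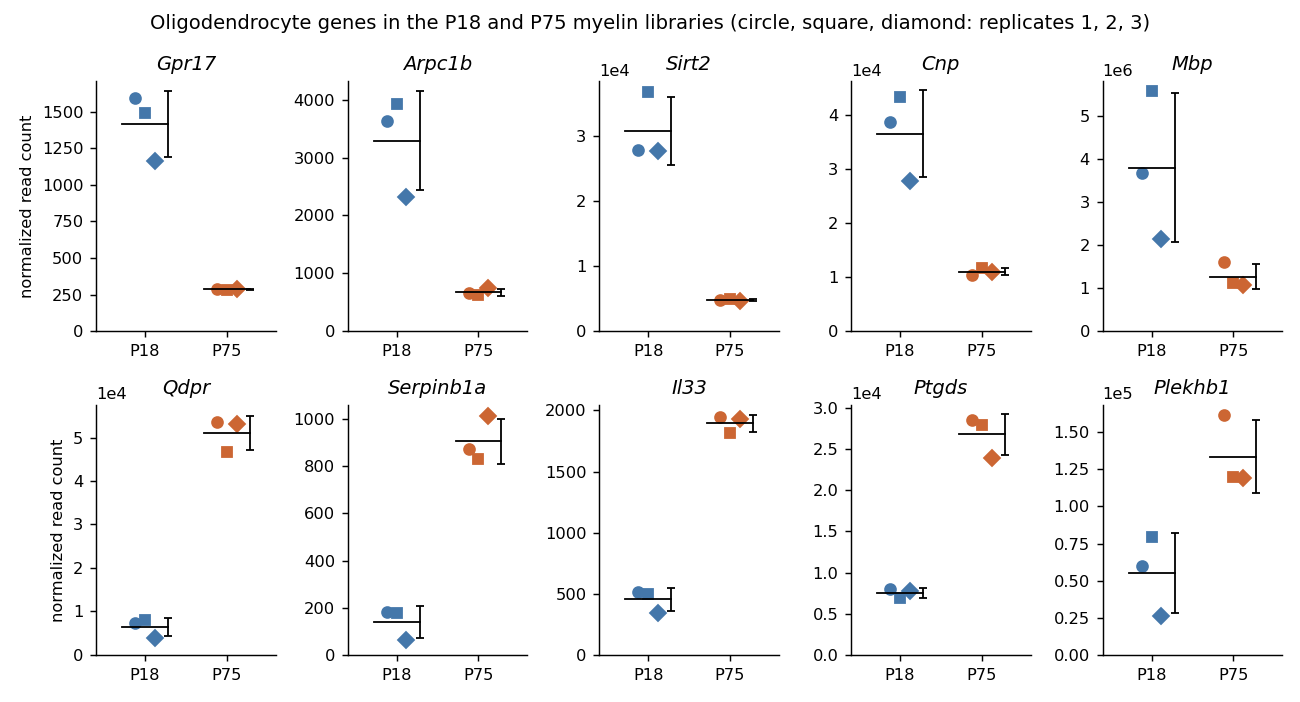
Normalized read counts (y axis, linear, from 0) of 10 oligodendrocyte genes in each P18 (blue) and P75 (orange) library, with the mean as a line and the SD of 3 libraries as a bar; circle, square and diamond are replicates 1, 2 and 3. The upper row holds genes that were lower at P75, with Mbp spread over 2134340.0 to 5580860.0 at P18, and the lower row genes that were higher, among which P18 replicate 3 was lowest for Qdpr, Serpinb1a, Il33 and Plekhb1.

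Genes of the newly formed oligodendrocyte fell almost without exception. Of 21 markers of this short stage 20 fell and 1 rose, 11 fell over 2-fold and the median was -1.001. The long noncoding RNA 9630013A20Rik, named lncOL1 in RefSeq, had 1370.1, 1516 and 1199 at P18 and 128, 91.8 and 184 at P75, a change of -3.38 ± 0.22 (SE, adjusted p = 5.58e-08). Its level at 6 months was 37.2 ± 4.12 and at 24 months 10.9 ± 2.65 (SD, n = 3 each). Gpr17, a G protein-coupled receptor that holds cells at the premyelinating stage, had 1592, 1490.3 and 1160.1 at P18 and 292, 279 and 285 at P75. Its change of -2.29 ± 0.22 (SE, adjusted p = 1.75e-06) left the P75 libraries within a narrow band, far under the lowest P18 library. Gpr17 overlaps Lims2 on the other strand, and Lims2 changed as well, by -1.36 ± 0.15.

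Arpc1b, which encodes a subunit of the actin-branching Arp2/3 complex, had 3627, 3931 and 2324 at P18 and 652, 633 and 746 at P75 and a change of -2.25 ± 0.15 (SE, adjusted p = 8.31e-08). Kif19a, the gene of a kinesin that depolymerizes microtubules, had 292, 284 and 349 at P18 and 72.2, 99.2 and 72.96 at P75 with a log2 change of -1.92 ± 0.16 (SE, adjusted p = 6.82e-07). All of these genes were separated by age in every library. The small GTPase gene Rras2 changed by -1.62, Bmp4, which encodes a secreted inhibitor of oligodendrocyte differentiation, by -1.54, Rap2a by -1.39, Neu4, a sialidase gene, by -1.10, Fyn, the kinase gene acting at axon contact, by -1.001, and Enpp6, a choline phosphodiesterase gene, by -0.88 on the log2 scale. The member called higher was Slc12a2, a chloride cotransporter gene (log2 change 0.28 ± 0.13 SE, adjusted p = 0.0997), a call that was lost without P18 replicate 3 (0.11), without P75 replicate 1 (0.32) and without P75 replicate 3 (0.17). The count was 20 lower and 0 higher with P18 replicate 3 left out.

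Precursor markers moved less. Of 18 tested, 7 fell, 2 rose and 9 were not called, with a median of -0.20. Pdgfra, the growth factor receptor that defines the precursor, had 638, 629 and 779 at P18 and 655, 623 and 706 at P75, and the ages overlapped (log2 change -0.04 ± 0.10, adjusted p = 0.776). The largest fall of the list and its only one over 2-fold was that of Gpr17, which the list shares with the newly formed oligodendrocyte genes above. Other members that fell included Cacng4 at a log2 change of -0.94 ± 0.20 and Sox6 at a log2 change of -0.86 ± 0.14, while Cspg5, the neuroglycan C gene, rose on the log2 scale by 0.74 ± 0.08 and Ptprz1, a receptor phosphatase gene, by 0.56 ± 0.13.

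Transcription factors of the lineage fell together: 17 of 26 were lower, 0 higher and the median was -0.38. Olig2, the factor that specifies the lineage, had 1813, 1615 and 1785 at P18 and 684, 764 and 648 at P75, a change of -1.31 ± 0.11 (SE, adjusted p = 5.38e-07). Sox10, an activator of myelin genes, had 2789, 2531 and 2617 at P18 and 1206, 1377 and 903 at P75 with a log2 change of -1.21 ± 0.14 (SE, adjusted p = 8.12e-06). Olig1 had 10808, 11096 and 10660.0 at P18 and 4761, 4993 and 5212 at P75 with a log2 change of -1.12 ± 0.09 (SE, adjusted p = 3.71e-07). For all 3 genes the ages were widely separated, and P18 replicate 3 was within or close to the range of the other P18 libraries. Myrf, listed under its older symbol Gm98 and needed to switch on myelin genes, fell by less, with 1509, 1435 and 1196 at P18 and 1096, 1114 and 944 at P75 with a log2 change of -0.39 ± 0.12 (SE, adjusted p = 0.018). Sox8 and Nkx2-2, further factors of the lineage, changed by -0.67 and -0.77 on the log2 scale.

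Genes of the mature oligodendrocyte rose in 15 of 20 cases and fell in 2, with a median of 0.75 and 8 rises over 2-fold. Qdpr, which encodes a dihydropteridine reductase that regenerates the cofactor tetrahydrobiopterin, had 7228, 7925 and 3981 at P18 and 53662, 46635 and 53036 at P75. Its change of 3.06 ± 0.22 (SE, adjusted p = 1.41e-07) corresponded to a level 8.35-fold higher, and its 6-month level was 30732 ± 7882 (SD, n = 3). Serpinb1a, the gene of an intracellular inhibitor of neutrophil-type proteases, had 181, 177 and 61.3 at P18 and 874, 831 and 1013 at P75 with a log2 change of 2.84 ± 0.28 (SE, adjusted p = 2.11e-06). Qdpr lies on chr5:45825271-45841474 (minus strand) and Serpinb1a on chr13:32933961-32943054 (minus strand), both without an overlapping gene. In both, P18 replicate 3 was the lowest library.

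Il33, which encodes an alarmin cytokine held in oligodendrocyte nuclei, had 517, 498 and 347 at P18 and 1943, 1817 and 1930.2 at P75 with a log2 change of 2.08 ± 0.13 (SE, adjusted p = 4.55e-08). Abca8a, a lipid transporter gene, had 26.1, 25.99 and 15.1 at P18 and 170.4, 185 and 195 at P75 with a log2 change of 3.01 ± 0.20 (SE, adjusted p = 7.28e-08). Ptgds, the prostaglandin D synthase gene, had 8046, 6909 and 7724 at P18 and 28544, 27885 and 23956 at P75 with a log2 change of 1.82 ± 0.12 (SE, adjusted p = 5.58e-08). The P18 values of Ptgds lay close together, replicate 3 included, and its call held without that library. Apod, an apolipoprotein gene of long-lived myelin, rose on the log2 scale by 0.98 ± 0.15, Klk6, a secreted protease gene, by 1.26 ± 0.25, and Pex5l, a channel-trafficking gene, by 1.26 ± 0.13. Gsn, the gene of the actin-severing protein gelsolin, went the other way with 7129.7, 6101 and 4514 at P18 and 1789, 2052 and 2137 at P75, a change of -1.55 ± 0.14 (SE, adjusted p = 8.39e-07). Without P18 replicate 3 the list counted 12 higher and 3 lower, with a median of 0.58.

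**Figure D2:**
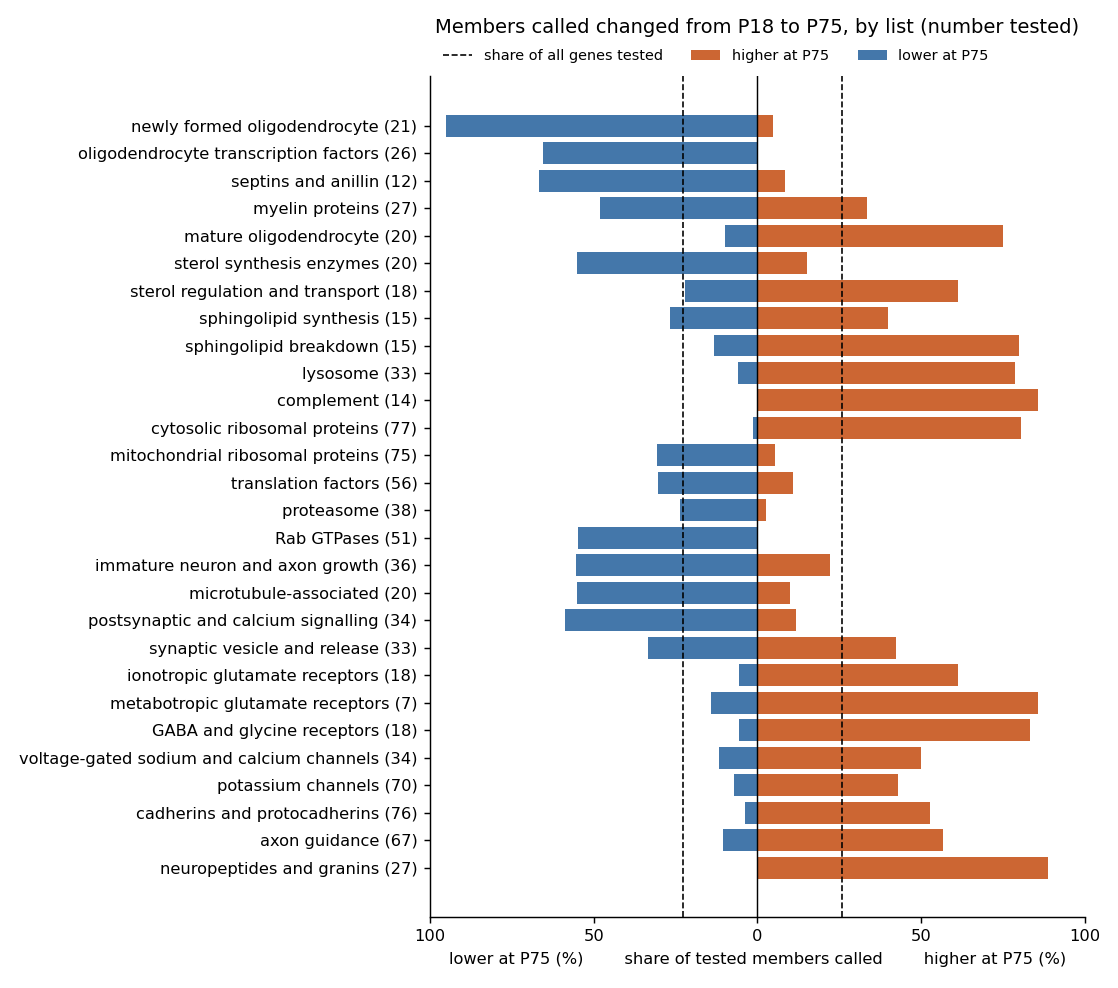
Share of tested members called higher (orange, to the right) and lower (blue, to the left) at P75 for 28 gene lists, with the number tested in brackets and dashed lines at the shares over all genes tested, 25.9% and 22.9%. Newly formed oligodendrocyte genes, lineage factors and Rab GTPases extend to the left, and neuropeptides, complement, receptors, cytosolic ribosomal proteins and lysosomal genes to the right.

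Of 20 tested enzymes of sterol synthesis 11 fell and 3 rose, with a median of -0.39. Lss, which closes the sterol rings, had 480.1, 379.6 and 371 at P18 and 172, 164 and 163 at P75 with a log2 change of -1.29 ± 0.13 (SE, adjusted p = 3.43e-06). Mvd and Fdps, of the mevalonate and isoprenoid steps, changed on the log2 scale by -1.15 ± 0.12 and -0.96 ± 0.10. The members that rose were Lbr, a sterol reductase gene that also anchors chromatin, at a log2 change of 0.90 ± 0.09, and Ebp and Sc5d, isomerase and desaturase genes, at a log2 change of 0.30 ± 0.11 and 0.27 ± 0.11. Ebp lost its call without P75 replicate 3 (0.26) and Sc5d without P18 replicate 3 (0.14) and without P75 replicate 3 (0.20).

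The genes that regulate and move sterols went the other way, with 11 of 18 higher, 4 lower and a median of 0.43. Srebf1, a membrane-held transcription factor of lipid synthesis, had 478, 415 and 445 at P18 and 1021, 1072 and 1108 at P75 with a log2 change of 1.26 ± 0.09 (SE, adjusted p = 8.2e-08). The genes of its escort and retention proteins rose too: Scap had 515, 551 and 614 at P18 and 813, 964 and 953 at P75 with a log2 change of 0.70 ± 0.09 (SE, adjusted p = 2.99e-05), and Insig1 1797, 1763 and 1660.3 at P18 and 2483, 2488 and 2979 at P75 with a log2 change of 0.60 ± 0.09 (SE, adjusted p = 9.28e-05). Each P75 library exceeded each P18 library for all of them. The sterol exporters Abcg1 and Abca1 rose on the log2 scale by 0.77 ± 0.09 and 0.45 ± 0.10, and Npc1, which lets cholesterol leave lysosomes, rose on the log2 scale by 0.42 ± 0.12.

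Among sphingolipid enzymes, those that make the galactolipids of myelin fell. Ugt8a, the galactosyltransferase that makes galactosylceramide, had 10949, 9815 and 5029 at P18 and 2982, 2417 and 3374 at P75, a change of -1.49 ± 0.22 (SE, adjusted p = 8.34e-05). Gal3st1, which sulfates it to sulfatide, had 1353, 1277 and 773 at P18 and 326, 382 and 471 at P75 with a log2 change of -1.50 ± 0.17 (SE, adjusted p = 6.67e-06). Fa2h, which hydroxylates the fatty acid, had 3019, 2867 and 2091 at P18 and 1167, 1301 and 1369 at P75 with a log2 change of -1.04 ± 0.13 (SE, adjusted p = 2.37e-05), and P18 replicate 3 was the lowest P18 library in all 3. The ceramide synthase gene Lass2 changed on the log2 scale by -0.46 ± 0.10. Of all 15 synthesis genes tested 6 rose, 4 fell and 5 were not called. Kdsr rose by 0.79 ± 0.08, Lass4 by 0.79 ± 0.10, Ugcg, which makes glucosylceramide, by 0.67 ± 0.09, and Sptlc2, a serine palmitoyltransferase subunit gene, by 0.34 ± 0.09. Enzymes and activators of sphingolipid breakdown rose in 12 of 15 cases and fell in 2, with a median of 0.48. Arsa, the arylsulfatase that degrades sulfatide, had 265, 247 and 242 at P18 and 399, 465 and 458 at P75 with a log2 change of 0.80 ± 0.10 (SE, adjusted p = 1.25e-05). Galc, which degrades galactosylceramide, had 402, 394 and 342 at P18 and 528, 497 and 562 at P75 with a log2 change of 0.48 ± 0.09 (SE, adjusted p = 0.000756). Hexa, a hexosaminidase subunit gene, rose on the log2 scale by 0.67 ± 0.12 and the saposin precursor gene Psap by 0.65 ± 0.11. Genes of fatty acid synthesis were divided, 6 lower and 5 higher of 20, with Elovl1, an elongase of very long chains, at a log2 change of -1.09 ± 0.11, and Acsl3, an acyl-CoA synthetase gene, at a log2 change of 0.49 ± 0.08.

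Lysosomal genes as a whole rose in 26 of 33 cases and fell in 2, with a median of 0.40. Cd63, a tetraspanin of late endosomes, had 1792, 1772 and 1483 at P18 and 3398, 3422 and 3325 at P75, a change of 1.01 ± 0.09 (SE, adjusted p = 8.54e-07). Ctss, a cathepsin gene of microglia, had 1403, 1394 and 1121 at P18 and 2576, 2503 and 2924 at P75 with a log2 change of 1.03 ± 0.12 (SE, adjusted p = 6.67e-06). Ctsz rose on the log2 scale by 0.83 ± 0.09. Microglial markers moved in the same direction, with 12 of 20 higher, 0 lower and a median of 0.37; their part in the lysosomal and complement results was not tested. The defining microglial genes were not uniform: Trem2 had 227, 237 and 198 at P18 and 329, 343 and 342 at P75 with a log2 change of 0.62 ± 0.10 (SE, adjusted p = 0.000217), but Tmem119 had 295, 295 and 219 at P18 and 289, 248 and 293 at P75, overlapping between the ages, with a log2 change of 0.05 ± 0.14 (SE, adjusted p = 0.808).

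Complement genes rose in 12 of 14 cases with 0 lower and a median of 0.68. C4b, a component that tags targets, had 153, 136 and 199.9 at P18 and 267, 337 and 459 at P75, a change of 1.10 ± 0.17 (SE, adjusted p = 0.000138). C1qa, C1qb and C1qc, the chains of the starting complex, rose by less, at a log2 change of 0.36 ± 0.10, 0.38 ± 0.12 and 0.39 ± 0.10. The surface inhibitors Cd55 and Cd59a rose on the log2 scale by 0.71 ± 0.18 and 0.77 ± 0.14. C4b went on to 461 ± 72.9 at 6 months and 1893 ± 129 at 24 months (SD, n = 3 each). Of 23 interferon and major histocompatibility class I genes 10 rose and 1 fell, or 6 and 1 without P18 replicate 1. Tap2, the peptide transporter gene, had 59.4, 68.9 and 71.3 at P18 and 132, 165 and 151 at P75 with a log2 change of 1.16 ± 0.13 (SE, adjusted p = 9.72e-06), B2m, the light chain of class I, changed on the log2 scale by 0.65 ± 0.08, and Isg15, an interferon-induced ubiquitin relative, was the member that fell (log2 change -0.60 ± 0.26 SE, adjusted p = 0.0745), a call lost without P18 replicate 1 (-0.62), without P18 replicate 3 (-0.39), without P75 replicate 2 (-0.47) and without P75 replicate 3 (-0.62). Class I heavy chain genes have near-identical copies, and H2-K1, at a log2 change of 0.87 ± 0.09, and H2-D1, at a log2 change of 0.65 ± 0.12, are uncertain to that extent.

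Cytosolic ribosomal protein genes were among the most one-sided lists of the comparison. Of 77 tested, 62 rose, 1 fell and 14 were not called, 12 rose over 2-fold and the median log2 change was 0.65. Rps12 had 17988, 16716 and 10745 at P18 and 35595, 34204 and 47271 at P75, a change of 1.38 ± 0.22 (SE, adjusted p = 0.000144). Rps3a had 18763, 19489.7 and 12278 at P18 and 44288, 37168 and 45844 at P75 with a log2 change of 1.36 ± 0.19 (SE, adjusted p = 5.88e-05). Rps6, whose phosphorylation is a standard readout of growth signalling, had 22771, 22534 and 16593 at P18 and 48733, 44430.1 and 51105 at P75 with a log2 change of 1.23 ± 0.18 (SE, adjusted p = 6.09e-05). P18 replicate 3 was the lowest library for all of these, and the other P18 libraries still lay under every P75 library. The rise was uneven within the ribosome: Rpl13a changed on the log2 scale by 1.13 ± 0.22, Rps24 by 1.13 ± 0.20 and Rpl5 by 1.05 ± 0.16, while Rps2 had 23178, 26173 and 18387 at P18 and 19294, 18980.1 and 20985 at P75 with a log2 change of -0.18 ± 0.16 (SE, adjusted p = 0.381), and Rpl7a had a log2 change of -0.05 ± 0.12 (SE, adjusted p = 0.785). Rps2 was called lower without P18 replicate 3 (-0.32). The level of Rps12 at 6 months was 19424 ± 5258, between the levels of the P18 and P75 libraries, and at 24 months 30064 ± 5562 (SD, n = 3 each).

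These genes have many near-identical processed copies in the genome, which makes their counts less certain. Rpl34, the member that fell, had only 32.1, 40.7 and 49.2 at P18 and 27.1, 28.7 and 26.5 at P75 and a change of -0.53 ± 0.24 (SE, adjusted p = 0.0889). Its call was lost without P18 replicate 2 (-0.52), without P18 replicate 3 (-0.39), without P75 replicate 1 (-0.52), without P75 replicate 2 (-0.56) and without P75 replicate 3 (-0.51). Without P18 replicate 3 the count was 55 higher and 2 lower and the median 0.49. With every library scaled to the same total it was 67 higher and 0 lower.

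Messenger RNAs of ribosomal proteins classically start with a run of pyrimidines that ties their translation to growth signals. RefSeq start windows were at hand for 55 of the 77 tested genes. The letters CTTTC, read on the gene's strand within 30 bases on each side of the annotated start, were present in 21 of the 55 (38.2%), against 9.18% of all 27025 genes with a window. On the other strand the shares were 9.09% and 8.58%. Windows of 30 bases, 15 before and 15 after the start, are shown for 5 of the genes that rose, as examples of where these letters, in capitals, fall. The sequences are from the RefSeq promoter table (GRCm38.p6), and the coordinates are those of their single exact match in NCBIM37: Rpl13a chr7:52384101-52384130 (minus strand), Rps10 chr17:27772175-27772204 (minus), Rpl38 chr11:114529879-114529908 (plus), Rps15a chr7:125259647-125259676 (minus) and Rplp2 chr7:148633535-148633564 (plus).
Rpl13a: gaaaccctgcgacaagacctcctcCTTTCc
Rps10: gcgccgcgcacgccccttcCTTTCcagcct
Rpl38: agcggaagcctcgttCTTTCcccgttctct
Rps15a: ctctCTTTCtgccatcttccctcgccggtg
Rplp2: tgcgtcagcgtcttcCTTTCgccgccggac
The log2 changes of these genes were 1.13, 0.88, 0.81, 0.62 and 0.57. Ribosomal protein genes with the letters rose in 14 of 21 cases and those without in 29 of 34. Among the other tested genes 26.1% of 783 with the letters and 25.3% of 9465 without them were higher. The letters were counted anywhere in these windows, before or after the start. Whether a transcript begins with a pyrimidine run, and any part of such a run in the changes, was not tested.

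Mitochondrial ribosomal proteins, which are made from nuclear genes but serve the ribosome of mitochondria, did not follow the cytosolic ones. Of 75, 23 fell, 4 rose and the median was -0.11. Mrps2 had 845, 794 and 759 at P18 and 601, 583 and 515 at P75, a change of -0.50 ± 0.10 (SE, adjusted p = 0.00101). Without P75 replicate 1 the list counted 6 higher and 10 lower. It also depended on the scaling: with the same total for every library 10 rose and 3 fell and the median became 0.01. The plot of ranked changes shows the contrast between the cytosolic and mitochondrial sets. Initiation and elongation factors leaned down, with 17 of 56 lower and 6 higher, and the elongation factor 1 complex held rises. Eef1b2, its exchange factor, had 9944, 11412 and 7009 at P18 and 17684, 15626 and 18025 at P75 with a log2 change of 0.88 ± 0.17 (SE, adjusted p = 0.000793), and Eef1d 3169, 3277 and 2911 at P18 and 5344, 5751 and 5672 at P75 with a log2 change of 0.84 ± 0.13 (SE, adjusted p = 9.22e-05). Eef1a1 had 94804, 100301 and 66399 at P18 and 119187, 106639 and 113837 at P75, with a log2 change of 0.40 ± 0.19 (SE, adjusted p = 0.105), and it was called higher without P18 replicate 2 (0.51). Its neuronal and muscle paralogue Eef1a2 changed on the log2 scale by -0.60 ± 0.13. Eif4e2, a cap-binding repressor, changed on the log2 scale by -0.72 ± 0.08, Eif5a by -0.59 ± 0.09 and Eif4a1, the cap-complex helicase gene, by -0.54 ± 0.09.

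**Figure D3:**
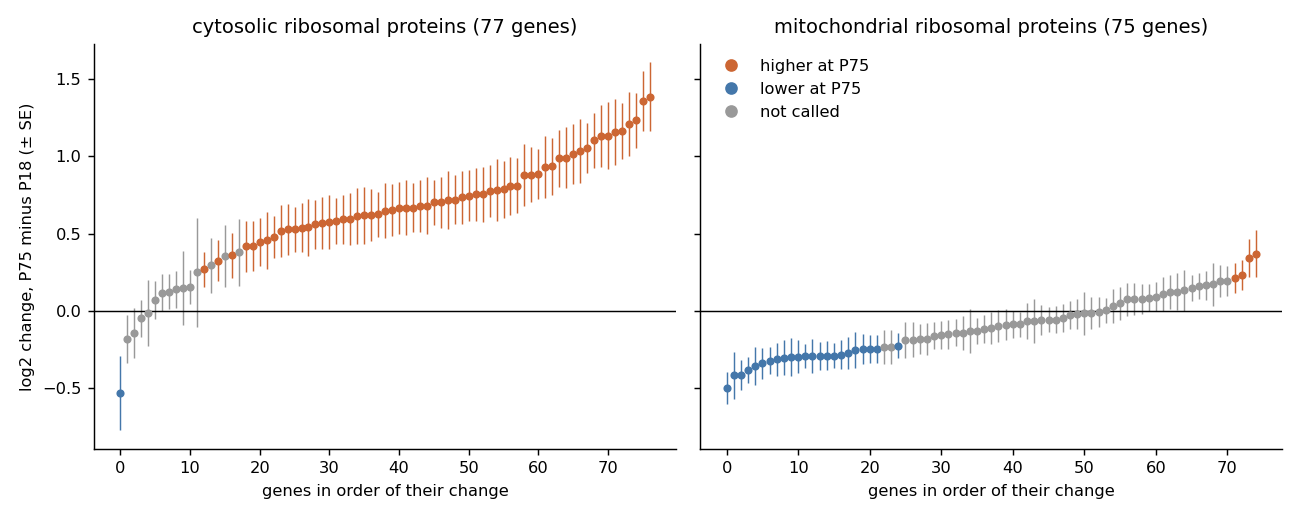
Log2 change from P18 to P75 (y axis, ± SE) of 77 cytosolic and 75 mitochondrial ribosomal protein genes, each panel in order of the change, with orange for genes called higher, blue for lower and grey for not called. In the left panel 62 genes are orange and 1 blue, in the right panel 4 are orange and 23 blue.

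Proteasome subunits had 9 of 38 lower and 1 higher, with Psmd9 at a log2 change of -0.52 ± 0.09. Chaperones had 10 of 29 lower and 4 higher. Hsp90b1, the endoplasmic reticulum member of its family, had 5865, 5903 and 4439 at P18 and 9115, 9261 and 10548 at P75 with a log2 change of 0.84 ± 0.15 (SE, adjusted p = 0.000292), while Hspa8, the constitutive cytosolic chaperone, had a log2 change of -0.15 ± 0.18 (SE, adjusted p = 0.546) and Dnajb5 changed on the log2 scale by -0.65 ± 0.13. Among families assembled after the values were seen, protein disulfide isomerases and chaperones of the endoplasmic reticulum had 9 of 18 higher and 0 lower. Ubiquitin-conjugating enzymes had 22 of 33 lower and 0 higher with a median of -0.29, and protein phosphatase subunits 34 of 60 lower and 3 higher. RNA-binding proteins had 13 of 43 lower and 8 higher. Elavl3, a neuronal stabilizer of mRNA, changed on the log2 scale by -0.72 ± 0.09, Nova2, a splicing factor gene, by -0.89 ± 0.14, and Hnrnpa2b1, whose product carries Mbp mRNA, was called higher at a log2 change of 0.24 ± 0.10 (adjusted p = 0.0623), a call that was lost without P18 replicate 2 (0.17), without P75 replicate 2 (0.21) and without P75 replicate 3 (0.22).

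Few genes of the respiratory chain were called. In complex I of the respiratory chain 5 of 36 genes fell and 3 rose, in complexes II and III 3 of 14 fell, in complex IV 2 of 16 fell and 2 rose, and in complex V 5 of 15 fell. Complex I had 1 higher and 4 lower without P18 replicate 2 and 0 higher and 4 lower without P75 replicate 3, and complex IV 2 higher and 0 lower without P75 replicate 1. Of 30 genes of glycolysis and lactate handling 11 fell and 3 rose. Ldha, the dehydrogenase subunit that favours lactate, had 7837, 7775 and 9121 at P18 and 5693, 5903 and 5379 at P75, a change of -0.54 ± 0.10 (SE, adjusted p = 0.000349). Slc2a1, the glucose transporter gene, had 1012, 1053 and 1081 at P18 and 1233, 1509 and 1733 at P75 with a log2 change of 0.49 ± 0.10 (SE, adjusted p = 0.00114). Gamt, the enzyme that completes creatine synthesis in oligodendrocytes, fell further, with 1345, 1724 and 940.1 at P18 and 388, 507 and 471 at P75 with a log2 change of -1.52 ± 0.17 (SE, adjusted p = 6.12e-06), while Gatm, the enzyme before it, rose with 5575, 5187 and 2506 at P18 and 8247, 6757 and 7261 at P75 with a log2 change of 0.83 ± 0.22 (SE, adjusted p = 0.00586). The paired steps of creatine synthesis hence changed in opposite directions. Scaling to the same total turned the medians of glycolysis, complexes II and III, complex IV and creatine genes from slightly negative to slightly positive.

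Iron, oxidant and carrier genes were mixed. Fth1, the ferritin heavy chain gene, had 198900.0, 221953 and 91427 at P18 and 524948, 418279 and 498505 at P75, a change of 1.59 ± 0.39 (SE, adjusted p = 0.00421), and Ftl1, the light chain, had 10065, 10653 and 7458 at P18 and 6296, 5863 and 6581 at P75 with a log2 change of -0.57 ± 0.14 (SE, adjusted p = 0.00346). The ferritin subunits thus moved in opposite directions, though both have near-identical copies and are uncertain to that extent. Of 36 antioxidant and glutathione genes 18 fell and 6 rose, and with the same total 7 fell and 7 rose. Prdx4, the peroxiredoxin of the secretory route, had 269, 337 and 298 at P18 and 565, 579 and 683 at P75 with a log2 change of 1.01 ± 0.10 (SE, adjusted p = 2.03e-06), Mgst1, a membrane glutathione transferase gene, rose on the log2 scale by 1.06 ± 0.09, and Gsto1, a cytosolic one, changed on the log2 scale by -0.87 ± 0.11. Mitochondrial carriers had 14 of 39 lower and 6 higher. Slc25a1, which exports citrate for lipid synthesis, had 1796, 1978 and 1378 at P18 and 808, 823 and 722 at P75 with a log2 change of -1.12 ± 0.11 (SE, adjusted p = 2.65e-06). Of 13 carbonic anhydrase genes 5 rose and 0 fell, with Car12 at a log2 change of 0.90 ± 0.12.

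Genes of growing axons leaned down. Of 36 genes of immature neurons and axon growth 20 fell and 8 rose, with a median of -0.31. Marcksl1, which encodes an actin-regulating substrate of protein kinase C, had 11509.7, 12062 and 12315 at P18 and 2258, 2269.7 and 2375 at P75. Its change of -2.38 ± 0.08 (SE, adjusted p = 2.46e-11) was far beyond the spread of either age, and the level went on down to 1351 ± 112 at 6 months and 1069 ± 58.8 at 24 months (SD, n = 3 each). Dpysl5, a collapsin response mediator gene, had 1004, 929.9 and 1163 at P18 and 521, 512 and 375 at P75 with a log2 change of -1.15 ± 0.14 (SE, adjusted p = 1.08e-05), and Sox4 had 225, 148 and 229 at P18 and 68.1, 102 and 70.8 at P75 with a log2 change of -1.31 ± 0.19 (SE, adjusted p = 5.96e-05). In all 3 the ages did not overlap.

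Microtubule-associated genes fell in 11 of 20 cases and rose in 2. Stmn2, a tubulin-sequestering protein of growth cones, had 18913, 19086 and 21499 at P18 and 12198, 13181 and 13286 at P75, a change of -0.62 ± 0.09 (SE, adjusted p = 7.29e-05). Mapre1, an end-binding protein, changed on the log2 scale by -0.70 ± 0.10. Tubulins had 4 of 16 lower, near the share over all genes tested, and 3 higher. Their log2 changes ran from -0.55 to 0.66. Tubb2b, a developmental isotype, was at a log2 change of -0.55 ± 0.10 and Tuba1a at -0.53 ± 0.09. Tubb4 and Tuba4a were lower too, at -0.48 ± 0.14 and -0.34 ± 0.14. The call of Tuba4a was lost without P18 replicate 3 (-0.17), without P75 replicate 1 (-0.36) and without P75 replicate 3 (-0.19). Tubulin genes share long stretches of sequence, which makes their counts less certain. Of 9 intermediate filament genes 6 fell and 2 rose. Ina, the gene of the neuronal filament internexin, had 851, 958 and 903 at P18 and 543, 444 and 305 at P75 with a log2 change of -1.11 ± 0.15 (SE, adjusted p = 4.32e-05). Gfap, the astrocyte filament gene, had 14618, 11249 and 6991 at P18 and 6069.8, 5569 and 5547 at P75 with a log2 change of -0.87 ± 0.20 (SE, adjusted p = 0.00238), P18 replicate 3 being the lowest of its age, and Synm, a filament linker gene, rose with 624, 658 and 354 at P18 and 1573, 1267 and 1207 at P75 with a log2 change of 1.35 ± 0.19 (SE, adjusted p = 5.26e-05). Kinesin and dynein motors had 14 of 34 lower and 4 higher, with Kif1c, a motor of mRNA and vesicles, rising on the log2 scale by 0.92 ± 0.26.

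Among genes of excitability, rises outnumbered falls. Voltage-gated sodium and calcium channels had 17 of 34 higher and 4 lower, with a median of 0.38. Scn1a, a sodium channel of axon initial segments, had 1885, 1967 and 2499 at P18 and 4451, 4943 and 5354 at P75, a change of 1.22 ± 0.11 (SE, adjusted p = 1.06e-06). Scn4b, a channel beta subunit gene, had 995, 1295 and 1067 at P18 and 2186, 2308 and 1975 at P75 with a log2 change of 0.95 ± 0.11 (SE, adjusted p = 7.37e-06). Potassium channels had 30 of 70 higher and 5 lower, among them Kcnc1, a fast repolarizing channel, at a log2 change of 0.88 ± 0.08. Of 30 genes of the node and paranode 11 rose and 6 fell, and Cntn2, an adhesion molecule of the juxtaparanode, rose on the log2 scale by 0.84 ± 0.13. Ion pumps had 8 of 14 higher and 2 lower: Atp1b3 had 2980.2, 2698 and 2459.8 at P18 and 6156, 5773 and 6533 at P75 with a log2 change of 1.18 ± 0.09 (SE, adjusted p = 2.09e-07), while Fxyd7, a neuronal pump regulator, changed on the log2 scale by -0.93 ± 0.13.

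Most transmitter receptor genes rose. Ionotropic glutamate receptors had 11 of 18 higher and 1 lower, metabotropic ones 6 of 7 higher and 1 lower, and receptors and cotransporters of GABA and glycine 15 of 18 higher and 1 lower, with medians of 0.40, 0.90 and 0.62. Gria2, the subunit that blocks calcium entry, had 2897, 2985 and 4062 at P18 and 6202, 5843 and 7004 at P75, a change of 0.95 ± 0.13 (SE, adjusted p = 3.92e-05). Grm3, a metabotropic receptor that oligodendrocytes also express, had 368, 345 and 214 at P18 and 833, 829 and 859 at P75 with a log2 change of 1.48 ± 0.16 (SE, adjusted p = 5.45e-06), and Grm8 had 169.9, 137 and 167 at P18 and 348, 352 and 373 at P75 with a log2 change of 1.18 ± 0.12 (SE, adjusted p = 2.77e-06). Glrb, the anchoring subunit of the glycine receptor, had 3819, 3708 and 3765 at P18 and 7315, 8319 and 9367 at P75 with a log2 change of 1.14 ± 0.10 (SE, adjusted p = 6.95e-07). None of these overlapped between the ages.

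Postsynaptic and calcium signalling genes fell in 20 of 34 cases and rose in 4, with a median of -0.31. Nrgn, the calmodulin-binding neurogranin gene, had 21766, 22530.2 and 33329 at P18 and 12301, 14193 and 11067 at P75, a change of -1.03 ± 0.16 (SE, adjusted p = 0.000123), and was highest in P18 replicate 3. Shank1, a scaffold gene, had 696, 763 and 822 at P18 and 475, 342 and 217 at P75 with a log2 change of -1.21 ± 0.20 (SE, adjusted p = 0.000164). Itpr1, a calcium release channel of the endoplasmic reticulum, was an exception, with 3259, 3463 and 4381 at P18 and 8659, 7661 and 9039.5 at P75 with a log2 change of 1.20 ± 0.12 (SE, adjusted p = 2.71e-06). Synaptic vesicle genes were divided, 14 of 33 higher and 11 lower. The release genes Stx1a and Vamp2, of the fusion complex, and Rims1, of the active zone, changed on the log2 scale by -0.92 ± 0.11, -0.81 ± 0.09 and -1.31 ± 0.22, and Slc32a1, the vesicular GABA transporter gene, rose on the log2 scale by 0.80 ± 0.12.

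Neuropeptide genes rose almost without exception, with 24 of 27 higher, 0 lower, 11 over 2-fold and a median of 0.90. The summed level of the list was 26824 to 41482 at P18, highest in replicate 3, and 51771 to 58986 at P75. Hypothalamic transmitters were among the larger changes. Oxt, oxytocin, had 11.9, 25.99 and 20.1 at P18 and 86.2, 79.7 and 112 at P75, a change of 2.25 ± 0.24 (SE, adjusted p = 3.95e-06). Pmch, melanin-concentrating hormone, had 86.7, 89.3 and 59.3 at P18 and 228, 273 and 283 at P75 with a log2 change of 1.74 ± 0.18 (SE, adjusted p = 2.6e-06). Hcrt, hypocretin, had 47.5, 49.7 and 36.2 at P18 and 108, 156 and 154 at P75 with a log2 change of 1.62 ± 0.20 (SE, adjusted p = 1.37e-05). Avp, vasopressin, had 39.2, 33.9 and 77.3 at P18 and 194, 118 and 134 at P75 with a log2 change of 1.61 ± 0.26 (SE, adjusted p = 0.000152). These are low counts, and yet each P75 library exceeded each P18 library. Forebrain peptides with far more reads moved by less: Penk, proenkephalin, had 2278, 3183 and 4487 at P18 and 7069.9, 7750.2 and 5756 at P75 with a log2 change of 1.09 ± 0.18 (SE, adjusted p = 0.000157), and Sst, somatostatin, had 2317, 2751 and 5128 at P18 and 4471, 6403 and 4458 at P75 with a log2 change of 0.65 ± 0.21 (SE, adjusted p = 0.0224). In Sst, Tac2, Npy, Adcyap1 and Vgf, P18 replicate 3 reached into the P75 range, and Sst lost its call without P18 replicate 1 (0.42) and without P75 replicate 2 (0.48). Npy, neuropeptide Y, with a log2 change of 0.39 ± 0.18 (SE, adjusted p = 0.0939), lost its call without P18 replicate 1 (0.19), without P18 replicate 2 (0.32), without P75 replicate 1 (0.41) and without P75 replicate 2 (0.24). The granin gene Scg2 rose on the log2 scale by 0.996 ± 0.13 and the processing enzyme gene Pcsk2 by 0.72 ± 0.10. The members not called were Vgf (log2 change 0.35 ± 0.22 SE, adjusted p = 0.208), Pomc (log2 change -0.10 ± 0.17 SE, adjusted p = 0.686) and Pdyn (log2 change -0.59 ± 0.49 SE, adjusted p = 0.358). Vgf was called higher without P18 replicate 3 (0.66), and Pdyn, with 2.38, 10.2 and 14.1 at P18 and 8.02, 1.85 and 5.53 at P75, was called lower without P18 replicate 1 (-1.23). Leaving out P18 replicate 3 gave 25 higher and a median of 1.08.

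**Figure D4:**
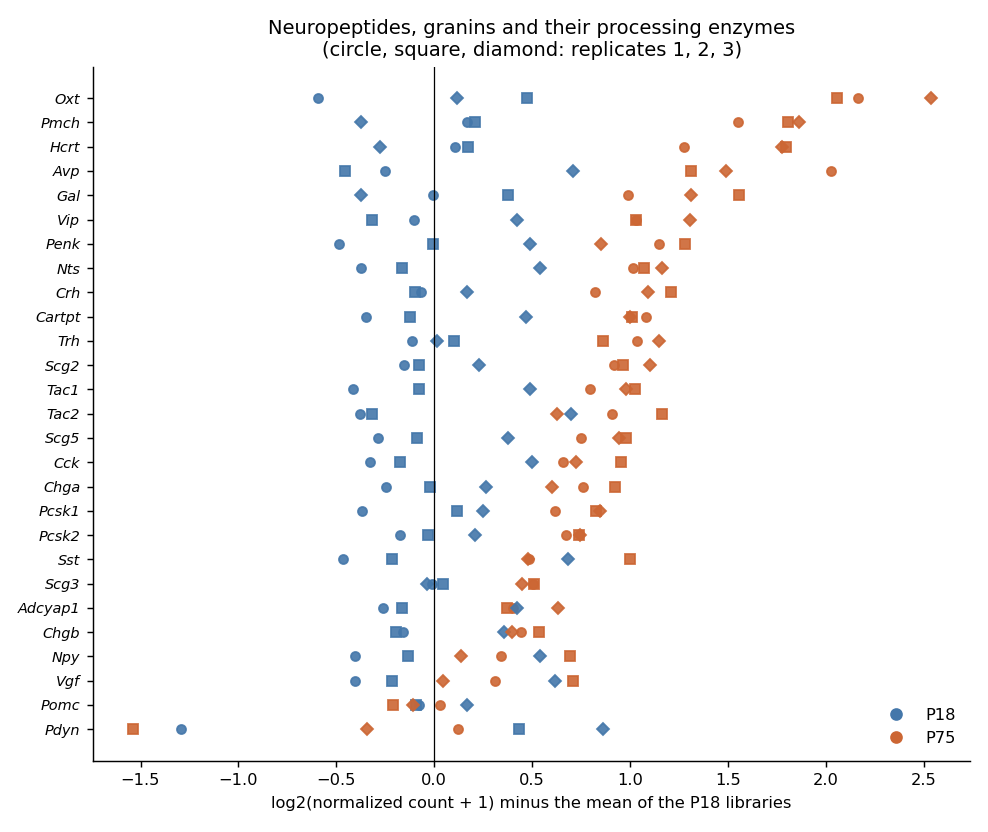
Log2(normalized read count + 1) of 27 neuropeptide, granin and processing enzyme genes in each library, minus the mean of the P18 libraries (x axis), for P18 (blue) and P75 (orange); circle, square and diamond are replicates 1, 2 and 3. The P75 points of Oxt, Pmch, Hcrt and Avp lie to the right of all P18 points, and the diamond of P18 is the rightmost P18 point for 21 of the genes.

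Cadherins and protocadherins had 40 of 76 tested members higher and 3 lower, 11 over 2-fold, and 24 further members were under the filter. Pcdhb3 had 40.4, 54.2 and 40.2 at P18 and 98.2, 133 and 124 at P75, a change of 1.38 ± 0.16 (SE, adjusted p = 8.16e-06). Pcdhb14 had 48.7, 36.2 and 51.2 at P18 and 114, 107 and 113 at P75 with a log2 change of 1.29 ± 0.15 (SE, adjusted p = 8.01e-06), and Pcdhb9 had 98.6, 111 and 115 at P18 and 206, 272 and 268 at P75 with a log2 change of 1.19 ± 0.11 (SE, adjusted p = 1.69e-06). The ages were separated for all 3, at low counts, and members of this clustered family are alike in sequence and thus uncertain. Pcdhgc3, of the gamma cluster, changed on the log2 scale by -1.01 ± 0.17. Axon guidance genes had 38 of 67 higher and 7 lower, with Epha7 at a log2 change of 0.98 ± 0.10 and the netrin-G gene Ntng1 at a log2 change of 0.92 ± 0.10, while the semaphorins Sema4d and Sema6a changed on the log2 scale by -1.24 ± 0.15 and -1.13 ± 0.11. Of a set of 20 leucine-rich repeat transmembrane genes, chosen after the values were seen, 17 rose and 0 fell. In the brain matrix 9 of 21 genes rose and 3 fell, and Hapln4, a link protein of perineuronal nets, had 535, 651 and 529 at P18 and 1125, 1181 and 1000.5 at P75 with a log2 change of 0.95 ± 0.11 (SE, adjusted p = 7.29e-06).

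Protein families differed in their counts. Of 51 Rab GTPases, small proteins that attach to vesicles from the cytosol, 28 fell and 0 rose, with a median of -0.28. Rab33a had 1342, 1358 and 1625 at P18 and 776, 867 and 901 at P75, a change of -0.76 ± 0.10 (SE, adjusted p = 2.87e-05), and Rab7 had 1049, 1221 and 1051 at P18 and 684, 629 and 407 at P75 with a log2 change of -0.98 ± 0.14 (SE, adjusted p = 7.14e-05). With the same total for every library the count was 15 lower and 2 higher. Tetraspanins, which cross the membrane, had 12 of 24 higher and 4 lower, and Tspan7 had 14477, 15491 and 15668 at P18 and 25527, 28163 and 26792 at P75 with a log2 change of 0.82 ± 0.10 (SE, adjusted p = 2.09e-05). Among families grouped by symbol after the values were seen, ADP-ribosylation factors had 5 of 6 lower and G protein subunits 15 of 30 lower and 2 higher, while COPI and COPII coat genes had 4 of 19 lower and 2 higher and V-type ATPase subunits 7 of 20 lower and 5 higher. Solute carriers had 131 of 272 higher and 24 lower, genes with a Tmem symbol 92 of 189 higher and 24 lower, and ATP-binding cassette transporters 20 of 38 higher and 2 lower. Zinc finger genes with a Zfp symbol, which encode no membrane proteins by that name, had 78 of 340 higher and 46 lower. That was near the background for rises and, at 13.5%, under it for falls.

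This contrast was then described for all genes with a protein, 14146 or 96.7% of those tested, by counting hydrophobic segments in each protein. Proteins were translated from the longest coding sequence of each gene among GENCODE transcripts of build NCBIM37. A segment is a window of 19 residues with a mean Kyte-Doolittle hydropathy of at least 1.6. It is a simple mark of a stretch that can cross a membrane. Windows were counted along the protein without overlap, so a long hydrophobic stretch can count as more than 1 segment. The description was chosen after the values were seen. Of 8986 genes without a segment 16.3% were higher and 29.0% lower, of 2637 with 1 segment 36.8% and 16.7%, and of 2523 with at least 2 segments 50.1% and 9.0%. The share of rises went on with the number of segments, from 45.7% at 2 to 3 segments to 51.6% at 4 to 6, 58.3% at 7 to 12 and 68.2% of the 44 genes with 13 or more. A single segment at the N terminus, where signal peptides lie, went with 50.3% higher and 9.70% lower in 835 genes, and a single segment elsewhere with 30.6% and 19.98% in 1802 genes. Genes in none of the lists gave 15.9%, 36.0% and 50.1% higher for 0, 1 and at least 2 segments. Families picked after the values were seen, such as the solute carriers, were not left out of that count unless a list held them. It is therefore no separate check of the pattern.

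Median log2 changes were -0.07, 0.14 and 0.33 in the groups with 0, 1 and at least 2 segments. Other features of the transcripts moved with the change as well: within the group without a segment, the share higher ran from 9.77% to 23.5% over quartiles of GC content, and within the group with at least 2 segments from 42.3% to 60.1%. The order of the 3 groups was the same in each quartile of GC content, transcript length, protein length and level. Relative to the genes without a segment, and with the P18 mean set to 0, the mean log2 level of genes with at least 2 segments was -0.05, 0.02 and 0.03 in the P18 libraries and 0.36, 0.33 and 0.36 in the P75 libraries. At 6 and 24 months it averaged 0.82 and 0.93. The genes without a segment had a median that turned positive, 0.05, when every library was scaled to the same total, so the difference between the groups is given too. That difference of medians was 0.40, and between 0.34 and 0.42 under 17 other settings.

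**Figure D5:**
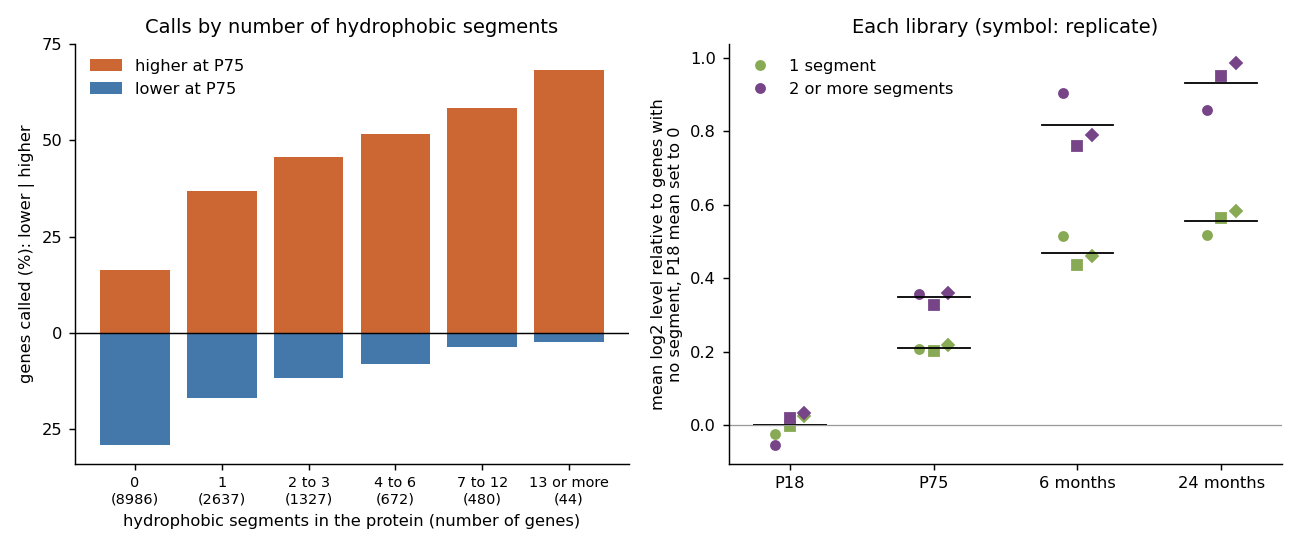
Left, share of genes called higher (orange, upward) and lower (blue, downward) at P75 by the number of hydrophobic segments in the protein, with the number of genes in brackets. Right, mean log2 level of genes with 1 segment (green) and with 2 or more (purple) relative to genes with none in each library, the P18 mean set to 0 and lines at the mean of 3 libraries; the group with 2 or more segments lay at 0.33 to 0.36 in the P75 libraries and higher at the later ages.

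Of 22 immediate early genes 13 fell and 1 rose. Fosl2 had 711, 536 and 617 at P18 and 329.7, 333 and 340.5 at P75, a change of -0.88 ± 0.11 (SE, adjusted p = 1.76e-05), while Fos, with 1064, 652 and 1400.2 at P18 and 659, 312 and 795 at P75, overlapped between the ages (log2 change -0.85 ± 0.31 SE, adjusted p = 0.0363) and lost its call without P18 replicate 3 (-0.60) and without P75 replicate 2 (-0.45). Of 39 cell cycle genes 14 fell and 4 rose. Ccnd2, a D-type cyclin gene, had 640.5, 532 and 605 at P18 and 384, 319 and 307 at P75 with a log2 change of -0.82 ± 0.13 (SE, adjusted p = 0.000165), but the replication licensing genes Mcm2 and Mcm7 rose on the log2 scale by 0.89 ± 0.18 and 0.45 ± 0.11. Chromatin genes of growing cells had 11 of 31 lower and 2 higher, or 7 and 1 without P18 replicate 1 and 8 and 0 without P75 replicate 3: Dnmt3a, a DNA methyltransferase gene, had 2709, 2754 and 3077 at P18 and 1679, 1579.9 and 1413 at P75 with a log2 change of -0.87 ± 0.09 (SE, adjusted p = 2.54e-06), and Tet1, which oxidizes methylcytosine, 509.8, 550.3 and 397 at P18 and 222, 227 and 269 at P75 with a log2 change of -1.01 ± 0.14 (SE, adjusted p = 3.62e-05). Thus the methylating and the oxidizing enzyme both fell.

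Among 30 imprinted genes 10 fell and 7 rose, with the growth inhibitor gene Cdkn1c at a log2 change of -1.01 ± 0.13 and Mkrn3 at a log2 change of -1.74 ± 0.23. Of 16 insulin-like growth factor genes 7 rose and 4 fell, and the receptors Igf1r and Insr rose on the log2 scale by 0.76 ± 0.13 and 0.68 ± 0.09. Hormone-responsive genes were mixed: of 20 glucocorticoid-responsive genes 7 fell and 5 rose, with Fkbp5, a receptor chaperone gene, at 1122, 1314 and 1938 at P18 and 593, 777 and 679 at P75 (log2 change -1.06 ± 0.16 SE, adjusted p = 8.37e-05) and Plin4, a lipid droplet gene, at 26.1, 42.9 and 137 at P18 and 141, 426 and 322 at P75 (log2 change 2.30 ± 0.50 SE, adjusted p = 0.00169). The values of Plin4 were spread within each age. Thyroid hormone genes had 6 of 13 lower and 2 higher, and Thra, a receptor gene, had 4805, 5538 and 5092 at P18 and 3053, 2610.0 and 2051 at P75 with a log2 change of -1.02 ± 0.11 (SE, adjusted p = 6.53e-06). The receptor gene Thrb rose, at a log2 change of 0.23 ± 0.08 (SE, adjusted p = 0.0372), without overlap between the ages. Of 19 clock genes 5 rose and 3 fell, or 2 and 3 without P75 replicate 1, with Per3 at a log2 change of 0.53 ± 0.11 and Nfil3 at a log2 change of -1.09 ± 0.19. Of 15 neuregulin and ErbB genes 6 rose and 2 fell, with Adam10, a protease that sheds their ligands, at a log2 change of 0.65 ± 0.09.

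Markers of other cells in the fraction moved unevenly. Astrocyte markers had 9 of 20 higher and 2 lower. Endothelial ones had 5 of 20 higher, near the share over all genes tested, and 1 lower. Of these, Slco1c1, Itm2a and Eng each lost their call when certain single replicates were left out. Mural ones had 4 of 10 higher and 1 lower, or 2 and 1 without P75 replicate 1. Fibroblast and meningeal markers had 7 of 12 higher and 2 lower and summed to 1221 to 1955 at P18 and 2064 to 2598 at P75. Dcn, the decorin gene, had 263, 203 and 168 at P18 and 625, 536 and 693 at P75, a change of 1.56 ± 0.13 (SE, adjusted p = 6.64e-07), and Ogn had 118, 93.8 and 69.3 at P18 and 311, 209 and 279 at P75 with a log2 change of 1.51 ± 0.17 (SE, adjusted p = 6.98e-06). The members that fell were the fibrillar collagen genes Col3a1 (log2 change -0.66 ± 0.22 SE, adjusted p = 0.0259) and Col1a1 (log2 change -0.59 ± 0.25 SE, adjusted p = 0.0761), with calls lost without P18 replicate 1 (-0.48) and without P18 replicate 2 (-0.54) for Col3a1 and without P18 replicate 1 (-0.29), without P18 replicate 2 (-0.64), without P75 replicate 2 (-0.62) and without P75 replicate 3 (-0.34) for Col1a1. Collagens and laminins had 16 of 52 higher and 8 lower, with Nid1, a basement membrane linker, changing on the log2 scale by -1.47 ± 0.21. Ependyma and choroid plexus markers had 5 of 15 higher and 1 lower. Ttr, transthyretin, had 14188, 12097 and 14034 at P18 and 24235, 28194 and 22809 at P75 with a log2 change of 0.90 ± 0.12 (SE, adjusted p = 3.49e-05).

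Red blood cell markers were represented by 5 tested genes, all lower (3 without P75 replicate 2), and the haemoglobin genes of the list were under the filter. Alas2, the red cell enzyme that starts haem synthesis, had 472, 362 and 414 at P18 and 44.1, 36.2 and 43.1 at P75, a change of -3.30 ± 0.21 (SE, adjusted p = 4.55e-08). Schwann cell markers had 2 of 7 higher and 2 lower. Genes of brain regions differed between the ages as well. Olfactory bulb genes had 8 of 11 higher and 0 lower, genes of the cerebellum 8 of 16 lower and 1 higher, and genes of the cortex and hippocampus 8 of 16 lower and 1 higher. The cerebellar genes that fell included Zic1, Zic2 and En2 (log2 changes -0.72, -0.60 and -0.50). Gabra6, Cbln1, Pcp2, Car8 and Calb1 were not called, and Cbln3 was the cerebellar gene that rose (0.44). Omp, a gene of olfactory sensory axons that lies within Capn5, had 177, 50.9 and 16.1 at P18 and 502, 282 and 272 at P75 (log2 change 2.65 ± 0.53 SE, adjusted p = 0.000846). Hoxa5, a hindbrain gene, had 239, 155 and 17.1 at P18 and 135, 189 and 192 at P75, with 1 low P18 library (log2 change 0.96 ± 0.62 SE, adjusted p = 0.225), and was called higher without P18 replicate 1 (1.69). Omp was highest among the P18 libraries in replicate 1 and Hoxa5 lowest in replicate 3, so the P18 libraries differed among themselves in regional genes. The part of such regional differences in the other results was not tested.

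The largest single changes, ranked where an age averaged over 100 normalized reads and the libraries of the ages were separate, lay partly outside these lists. The highest rise was S100a5, a calcium-binding protein of olfactory axons, with 129.5, 14.7 and 10.04 at P18 and 811, 584 and 759 at P75 (log2 change 4.65 ± 0.58 SE, adjusted p = 1.72e-05), where P18 replicate 1 again stood above the others. 4930581F22Rik, a long intergenic RNA at chr9:34924313-34938507 that overlaps St3gal4 and Dcps on the other strand, had 21.4, 12.4 and 16.1 at P18 and 120.2, 119.6 and 129 at P75 (log2 change 2.85 ± 0.19 SE, adjusted p = 7.83e-08). Neat1, the RNA scaffold of nuclear paraspeckles (chr19:5824708-5845478, minus strand), had 276, 276 and 405 at P18 and 1669, 1737 and 2209 at P75 (log2 change 2.56 ± 0.16 SE, adjusted p = 4.55e-08). A nuclear RNA was thus among the 10 largest rises. Dmp1, a matrix phosphoprotein gene, had 47.5, 76.8 and 63.3 at P18 and 349, 379 and 388 at P75 (log2 change 2.58 ± 0.15 SE, adjusted p = 2.69e-08), and Efemp1, a fibulin gene, 87.9, 71.2 and 42.2 at P18 and 348, 324 and 365 at P75 (log2 change 2.41 ± 0.19 SE, adjusted p = 2.71e-07). 4930506M07Rik, the gene of the axon growth protein shootin, had 1073, 1127 and 633 at P18 and 7456, 4661 and 5079.7 at P75 (log2 change 2.62 ± 0.21 SE, adjusted p = 2.79e-07). In all 6 genes the gap between the ages was wider than the range within either age.

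Among the falls the largest was Il23a, a cytokine subunit gene (chr10:127733196-127735140, minus strand), with 317, 316 and 277 at P18 and 12.03, 23.2 and 24.3 at P75, a change of -3.93 ± 0.31 (SE, adjusted p = 3.25e-07). Its level at 24 months was 4.75 ± 2.47 (SD, n = 3). Srd5a1, the steroid 5-alpha-reductase that prepares neurosteroid synthesis, had 1911, 2476 and 1204 at P18 and 200.4, 229.9 and 234 at P75 with a log2 change of -3.01 ± 0.18 (SE, adjusted p = 3.17e-08), and it overlaps Nsun2 on the other strand. 5430435G22Rik, which encodes a Rab7-like GTPase, had 299, 297 and 157 at P18 and 45.1, 30.6 and 30.9 at P75 with a log2 change of -2.75 ± 0.25 (SE, adjusted p = 1.25e-06). The cytokine, steroid and GTPase genes were each far lower in every P75 library. Parvb, an integrin-linked actin adaptor gene, had 1356, 1618 and 1341 at P18 and 294, 314 and 203 at P75 with a log2 change of -2.43 ± 0.14 (SE, adjusted p = 2.69e-08), and Rassf10, listed as a pseudogene in that annotation, had 152, 168 and 149 at P18 and 25.1, 38.01 and 32.1 at P75 with a log2 change of -2.28 ± 0.24 (SE, adjusted p = 4.39e-06).

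For 24 pairs of related genes, some with a known switch in development and others only related in sequence or role, the log2 ratio of a member set as late over one set as early was computed in each library. It was higher at P75 than in any P18 library for 7 pairs, lower for 8 and overlapping for 9. The link protein pair Hapln4 over Hapln1 had a mean log2 ratio of -0.13 at P18 and 0.98 at P75. Stmn4 over Stmn2 went from -1.54 to -1.07 as Stmn2 fell. The NMDA receptor pair Grin2a over Grin2b went the other way, from -1.51 to -2.06, with Grin2b at a log2 change of 0.75 ± 0.21 and Grin2a, at low counts, at a log2 change of 0.19 ± 0.26. Scn8a over Scn2a1 overlapped, at 0.39 ± 0.13 at P18 and 0.55 ± 0.19 at P75 (SD, n = 3). Eef1a2 over Eef1a1 went from -2.84 to -3.84, and Slc17a7 over Slc17a6, the vesicular glutamate transporters of cortex and of deeper regions, from 2.05 to 1.17. The ratios thus moved in either direction.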

How the data were processed

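Total RNA of myelin was sequenced as 3 libraries at each of 4 ages, taken here as separate brains. The submitters' processing notes name TopHat2 2.0.8, SAMtools 0.1.19, HTSeq 0.5.4p1 and DESeq, and the study's methods give the mouse build mm9 (NCBIM37). The deposited values are normalized signal: the authors counted reads per gene and divided the counts by size factors for each library. In all 12 libraries 100% of the values came out as whole reads (tolerance 0.01) once divided by the value of a read, which was fitted in each library, and these recovered reads gave the depth and the count tests named below. For 3 against 3 libraries the smallest p of an exact permutation test is 0.1, so the fit across all genes was used.

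Genes with a mean under 10 over the 12 libraries were left out (7303 of 21937). The main test was limma 3.58.1 (R 4.3.3) on log2(value + 1) over all 4 ages with a false discovery rate of 0.1 by Benjamini-Hochberg; on this scale the change of low genes is understated. The fit was tested on simulated data. Lists, pairs, the comparison itself and the members were chosen with earlier results of these data known. Genes were named by a rule: up to 4 called members of each list with the largest changes and a mean over 100 at 1 of the ages (also the highest member where most were not called), the 10 largest rises and falls, both genes of each pair, and defining lineage genes, 339 in all, some of which are not reported here. A further 62 list members are named for their roles and were chosen after their values were seen, as were the families and the hydrophobic segments, computed with Python 3.11.15, numpy 2.4.6 and pandas 2.3.3. Alternatives were pseudocounts of 0.5 and 10, no filter, a mean over 100, a false discovery rate of 0.05, other scalings, edgeR 4.0.16 and DESeq2 1.42.0 on recovered reads, a replicate block, the 6 libraries alone, and each replicate left out.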

Additional observations from a re-analysis of the deposited data

How the results depend on the processing

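The 7137 changed genes numbered 6022 to 7325 under all alternatives: 6233 to 7325 with 1 replicate left out, 7080 by edgeR, 6799 by DESeq2 and 6252 with the 6 libraries alone. The 665 genes changed over 2-fold became 396 with a pseudocount of 10 and 337 among genes with a mean over 100, both of which shrink or remove low genes by construction, 978 with no filter on low values, which adds low genes, and 597 to 772 with 1 replicate left out. With every library scaled to the same total 625 rose and 162 fell over 2-fold, and with quantile normalization 305 and 305. Replicate numbers did not pair the samples: deviations of same-numbered libraries correlated at -0.03, -0.15 and -0.14, and a fit with the replicate block called 6968 genes, 667 of them over 2-fold. None of the 401 named genes reversed under any alternative run. The difference between proteins with at least 2 and with no hydrophobic segments was lowest, 0.34, without the filter on low values. Without P18 replicate 3, the library with lower myelin levels, the members called were 2 higher and 6 lower for oligodendrocyte precursor, 2 higher and 18 lower for oligodendrocyte transcription factors, 2 higher and 13 lower for sterol synthesis enzymes, 26 higher and 3 lower for lysosome, 12 higher and 0 lower for complement, 5 higher and 21 lower for mitochondrial ribosomal proteins, 15 higher and 1 lower for GABA and glycine receptors, 4 higher and 17 lower for postsynaptic and calcium signalling and 0 higher and 31 lower for Rab GTPases. Low counts limit genes such as Oxt, Il23a and Rpl34.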
